A study of Mus musculus with 15 samples.

Results

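The comparison described here sets the lungs of 3 mice fed 5000 ppm permethrin for 7 days against the lungs of 3 mice fed 2500 ppm for the same time. These are 6 of the 15 arrays of a feeding study whose other diets held 0, 20 or 500 ppm, with 3 mice each. All mice were 11-week-old females of the outbred stock Crlj:CD1(ICR), and the agent was mixed into a powdered diet, so there was no genetic change in any group. Each array held the lung RNA of 1 mouse, and animals of an outbred stock differ in genotype. A level is the log2 of an array's processed signal minus that array's 75th percentile, so 0 is a bright but not extreme probe and a difference of 1 is a doubling of signal. A gene was tested when its probe was well above background on all 3 arrays of at least 1 of these doses. This left 32508 genes of the 45715 on the array, 18560 of them with a symbol, and the word gene below also covers features that carry only a transcript or clone identifier.

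Permethrin is a pyrethroid insecticide that holds voltage-gated sodium channels open, and mammals clear it through carboxylesterases, cytochrome P450 enzymes and conjugation. Nrf2, the product of Nfe2l2, is a transcription factor that Keap1 marks for degradation until electrophiles or oxidants modify Keap1. Nrf2 then binds with small Maf proteins at antioxidant response elements and switches on enzymes that make and use glutathione, reduce quinones and run the thioredoxin system. In the lung these enzymes are abundant in the airway epithelium, where inhaled and blood-borne chemicals are metabolised.

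No gene passed an adjusted p of 0.05 in limma's test of 5000 against 2500 ppm. At an unadjusted p under 0.05 there were 1703 genes, which is 5.24% of those tested and close to the 1625.4 that chance alone would give. Of these, 605 (1.86%) were higher and 1098 (3.38%) lower at 5000 ppm. The smallest adjusted p was 0.219, and it belonged to Gsta2 and Gm10639, which RefSeq places near each other on chromosome 9. All differences below are therefore values with their errors, and none is a call of a changed gene. Since whole lung was measured, fewer cells of a type and less RNA per cell cannot be told apart.

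Among the 6 arrays, 73.2% to 75.9% of probes were well above background and none had saturated spots. The array of 2500 ppm mouse 3 stood apart: its replicate spots varied by 8.41% (coefficient of variation), against 2.81% to 3.06% on the other 5, and 274 of its spots were set aside as outliers, against 115 to 138. The median SD over genes was 0.26 at 2500 ppm and 0.16 at 5000 ppm, and between mice 1 and 2 at 2500 ppm it was 0.13. The arrays at 2500 ppm lay in row 1 of their slide and those at 5000 ppm in row 2, so row and dose cannot be told apart. The arrays of controls, of 20 ppm and of 500 ppm mice 1 and 2 lay on another slide. Slide and diet therefore cannot be told apart where levels of those diets are set beside these. For some of the results below, values without 2500 ppm mouse 3 are given as well.

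Gsta2, which encodes an alpha-class glutathione transferase that couples glutathione to electrophiles, held with Gm10639 the smallest p-values of the whole table. Gsta2 was at 0.44, 0.93 and 0.88 in the mice at 2500 ppm and at 1.79, 2.17 and 2.54 in those at 5000 ppm. Every mouse at 5000 ppm lay above every mouse at 2500 ppm. The difference was 1.42 ± 0.21 (SE, n = 3 per dose), or 2.67-fold, with a 95% interval of 0.97 to 1.87 and an adjusted p of 0.219 in limma. Its mean was −0.39 in controls, −0.64 at 20 ppm and −0.23 at 500 ppm.

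Gm10639 and the pair of unnamed transcripts in this paragraph were chosen after their values were seen. Gm10639, a protein-coding gene model of RefSeq, was at 1.93, 2.39 and 2.30 at 2500 ppm and at 3.15, 3.55 and 3.90 at 5000 ppm, a difference of 1.33 ± 0.19 (SE). Unnamed transcript a, which the array places on the plus strand at chr9:78107225-78118850 of mm9, was at −1.19, −0.83 and −0.56 at 2500 ppm and at 0.87, 1.32 and 1.58 at 5000 ppm. Its difference of 2.12 ± 0.35 (SE) was 4.33-fold with an adjusted p of 0.369 in limma, and it alone passed the threshold, at 0.0376 and 0.0223, with normexp background correction and with the replicate number as a block. Unnamed transcript b, at chr9:78104935-78116974 of mm9 and overlapping the first, was at 1.36, 1.51 and 1.67 at 2500 ppm and at 2.24, 2.42 and 2.69 at 5000 ppm. All 4 features ordered the doses alike in every mouse. They belong to a region of closely related genes or overlap each other, and how far their probes bind each other's RNA was not tested.

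The sequences just upstream of Gsta2 and Gm10639 are shown because these genes led the comparison with similar differences, 1.42 and 1.33, and share a stretch of upstream sequence. They are RefSeq sequences of GRCm38.p6, written 5′ to 3′ on the strand of each gene and ending where the annotated gene begins, at chr9:78347193-78347395 (minus strand) and chr9:78289678-78289927 (plus strand). Capitals mark the longest run that they share, which is 18 bases long.
Gsta2: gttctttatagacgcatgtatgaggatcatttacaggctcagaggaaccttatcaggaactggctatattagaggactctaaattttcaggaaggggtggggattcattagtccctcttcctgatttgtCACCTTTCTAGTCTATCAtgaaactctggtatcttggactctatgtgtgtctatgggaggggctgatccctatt
Gm10639: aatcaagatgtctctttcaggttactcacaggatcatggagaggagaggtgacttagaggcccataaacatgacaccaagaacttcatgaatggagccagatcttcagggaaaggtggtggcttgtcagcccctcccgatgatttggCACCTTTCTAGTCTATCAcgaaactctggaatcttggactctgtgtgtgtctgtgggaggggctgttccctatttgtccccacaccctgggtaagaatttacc
With that run as the anchor and no gaps, 120 of 203 aligned positions (59.1%) were identical. No other pair of windows was compared.

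**Figure D1:**
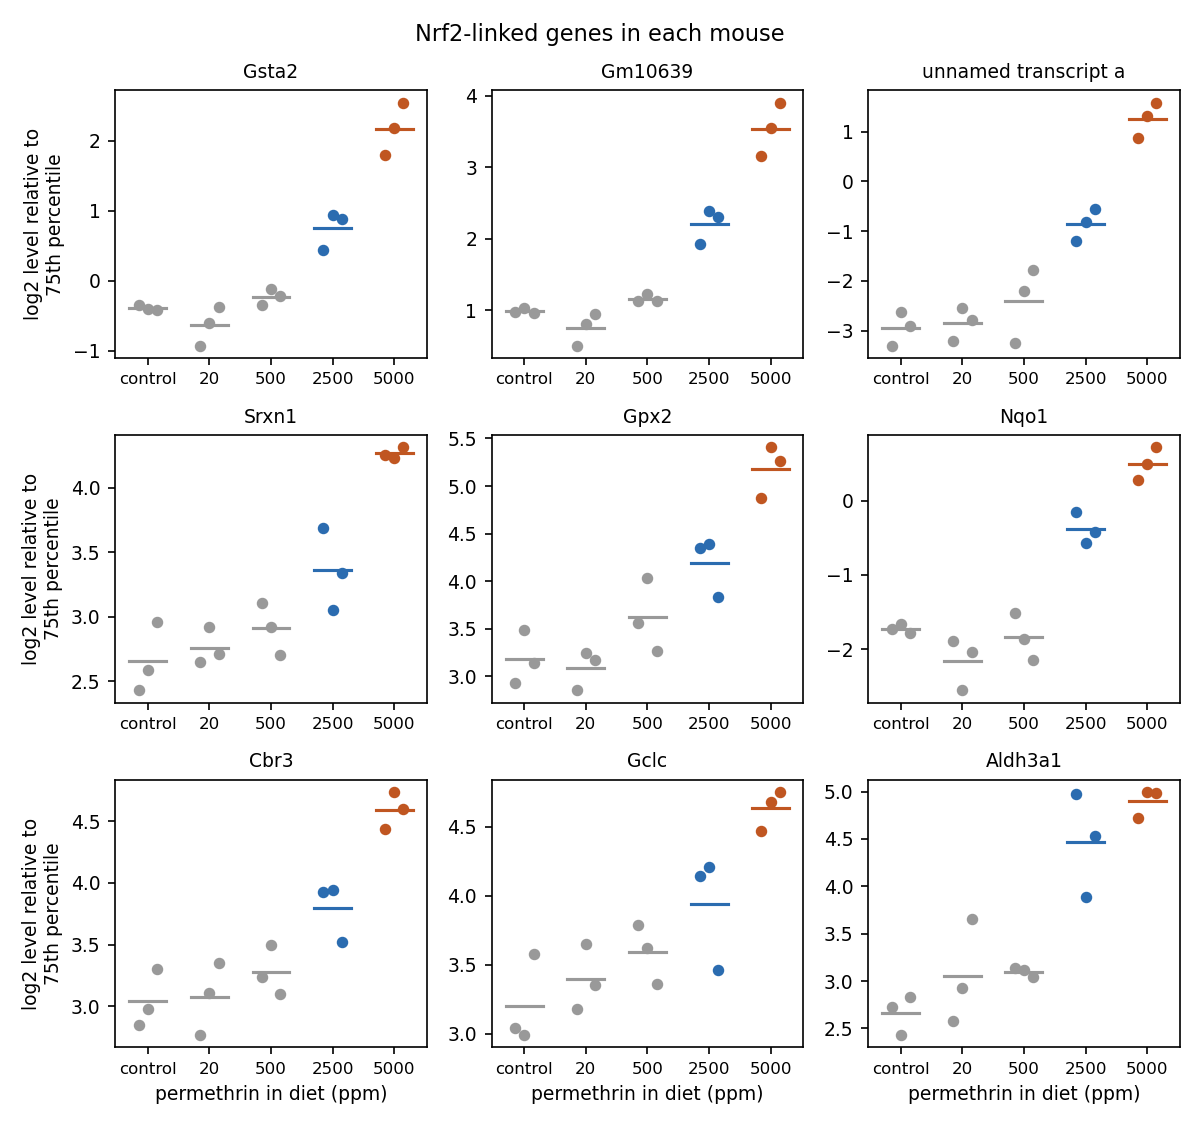
Level of 9 features in each of the 15 mice, as log2 signal relative to the array's 75th percentile, against permethrin in the diet in ppm. Gm10639 and unnamed transcript a are in no Nrf2 target list, and a link of theirs to Nrf2 was not tested. Points are mice and bars are means of 3, with 2500 ppm in blue, 5000 ppm in orange and the other diets in grey. All grey points but 500 ppm mouse 3 come from another slide. In all panels but that of Aldh3a1 the orange points lie above all blue ones, and Gsta2 goes from a mean of 0.75 to one of 2.17.

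The lists of Nrf2 targets held 85 genes in 5 groups by role, and 82 of them were measured. At an unadjusted p under 0.05, 15 of the 82 were higher (18.3%, against 1.86% of all genes) and none was lower. The difference was above 0 for 75 (91.5%, against 55.8%), and the groups did not overlap for 32 higher and 2 lower members (39.0% higher, against 8.53%, while 7.37% of all genes lay apart as lower, and 15.9% in either direction). Slc7a11, among the 15 and the 32, passed the filter through its 5000 ppm arrays alone. The median difference of the 82 members was 0.22, beside 0.04 over all genes, and none passed an adjusted p of 0.05. Without 2500 ppm mouse 3 the count at an unadjusted p under 0.05 was 16 higher and none lower, beside 3.15% higher and 4.10% lower over all genes, and the median was 0.26. The mean over the 82 members was 3.22, 3.22 and 3.25 in the mice at 2500 ppm and 3.43, 3.50 and 3.65 in those at 5000 ppm. The doses did not overlap in this mean, which includes Slc7a11. With arrays weighted by how well they fitted, where 2500 ppm mouse 3 got a weight of 0.25 and the other 5 got 1.40 to 2.05, limma called 183 genes higher and 530 lower, among them 9 of the 82 members, all higher, beside 0.563% higher over all genes. The lists were drawn up with earlier results of these mice known, so this is a description and not independent evidence of a direction.

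**Figure D2:**
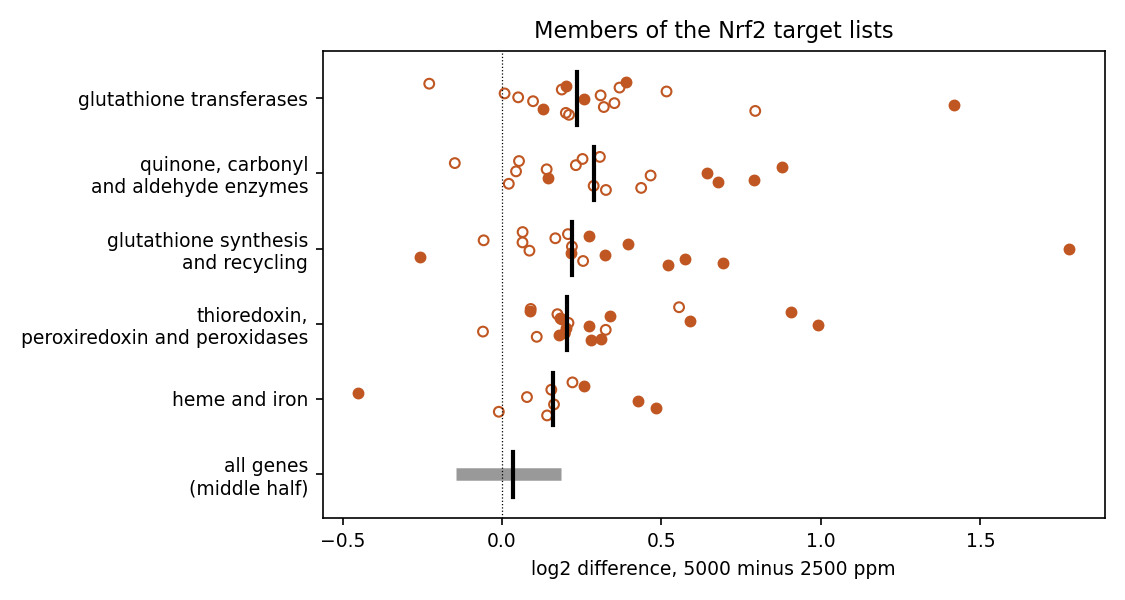
Log2 difference, 5000 minus 2500 ppm, of each measured member of the 5 Nrf2 target lists. Filled points are genes whose 3 mice at one dose all lie to one side of the 3 at the other, open points overlap, black bars are medians, and the grey bar spans the quartiles of all genes tested. The list medians lie between 0.16 and 0.29 and that of all genes at 0.04.

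Among the glutathione transferases, 17 of 18 measured members had a difference above 0 (beside 55.8% of all genes), with a median of 0.23. At an unadjusted p under 0.05, 2 were higher (beside 1.86%). Beside Gsta2, the other was Mgst1, a microsomal transferase that also reduces lipid peroxides, at 5.96, 5.96 and 6.20 at 2500 ppm and 6.28, 6.43 and 6.57 at 5000 ppm. Its doses did not overlap, and the difference was 0.39 ± 0.15 (SE, adjusted p = 0.876 in limma). Gstp1, the pi-class transferase, had a difference of 0.79 ± 0.61 (SE) with overlapping mice, from −0.07 to 0.35 at 2500 ppm and from 0.31 to 1.50 at 5000 ppm. Gstt1 was the member with a difference below 0, at −0.23 ± 0.35 (SE).

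The quinone, carbonyl and aldehyde enzymes had the largest median of the 5 lists, 0.29, with 16 of 17 differences above 0 (beside 55.8% of all genes). At an unadjusted p under 0.05, 4 were higher (beside 1.86%). Nqo1, the quinone reductase that is a standard readout of Nrf2, was at −0.16, −0.57 and −0.42 at 2500 ppm and at 0.28, 0.49 and 0.71 at 5000 ppm. Its doses did not overlap and differed by 0.88 ± 0.21 (SE, adjusted p = 0.614 in limma). Cbr3, a carbonyl reductase, was at 3.93, 3.95 and 3.52 against 4.44, 4.74 and 4.60, a difference of 0.79 ± 0.20 (SE). Ephx1, microsomal epoxide hydrolase, was at 6.13, 6.04 and 5.49 against 6.37, 6.46 and 6.76, and Ptgr1, a prostaglandin reductase, differed by 0.68 ± 0.27 (SE). In neither did the doses overlap. Aldh3a1, an aldehyde dehydrogenase, was at 4.98, 3.89 and 4.53 at 2500 ppm and at 4.73, 4.99 and 4.98 at 5000 ppm. These overlapped, and the difference was 0.44 ± 0.29 (SE), while its means at 20 ppm and in controls were 3.06 and 2.66.

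Glutathione synthesis and recycling had 17 measured members of 19, with a median of 0.22, and 5 were higher at an unadjusted p under 0.05 (beside 1.86% of all genes). Gclc and Gclm are the catalytic and modifier subunits of the enzyme that limits glutathione synthesis. Gclc was at 4.15, 4.21 and 3.46 at 2500 ppm and 4.47, 4.68 and 4.75 at 5000 ppm, a difference of 0.69 ± 0.23 (SE), which was 0.45 without 2500 ppm mouse 3. Gclm was at 2.23, 1.93 and 2.29 against 2.58, 2.69 and 2.75, a difference of 0.52 ± 0.14 (SE, adjusted p = 0.660 in limma). In both, the doses did not overlap. Gss, which completes glutathione, differed by 0.57 ± 0.23 (SE), and Taldo1, an enzyme of the pentose phosphate pathway, by 0.32 ± 0.14 (SE). Slc7a11, the cystine importer, was faint: it was at −4.41, −3.84 and −6.17 at 2500 ppm, where 2 of 3 arrays measured it above background, and at −3.45, −3.18 and −2.46 at 5000 ppm. Its difference of 1.78 ± 0.52 (SE) was 1.10 without 2500 ppm mouse 3 and 0.56 with normexp. Slc7a11 passed the filter through its 5000 ppm arrays alone, so no test of it is read here, though the 5 above include it. Abcc1, an exporter of glutathione conjugates, had the opposite order, with every mouse at 5000 ppm below those at 2500 ppm and a difference of −0.26 ± 0.21 (SE).

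In the thioredoxin, peroxiredoxin and peroxidase list 19 of 20 differences were above 0 (beside 55.8% of all genes). Of its members, 11 lay apart as higher at 5000 ppm (beside 8.53%). Srxn1, which repairs overoxidised peroxiredoxins, was at 3.69, 3.05 and 3.34 at 2500 ppm and at 4.26, 4.23 and 4.31 at 5000 ppm, a difference of 0.91 ± 0.19 (SE, adjusted p = 0.527 in limma). Gpx2, an epithelial glutathione peroxidase, was at 4.35, 4.39 and 3.83 against 4.87, 5.41 and 5.27, a difference of 0.99 ± 0.24 (SE). Txnrd1, the cytosolic thioredoxin reductase, differed by 0.59 ± 0.16 (SE) with no overlap, and its other probe by 0.40. Txn1, thioredoxin itself, was at 5.75, 5.96 and 5.79 against 6.15, 6.14 and 6.22. The mitochondrial superoxide dismutase Sod2 had a difference of −0.06 ± 0.25 (SE).

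Of the 10 heme and iron genes, 8 had a difference above 0 (beside 55.8% of all genes) and the median was 0.16. Blvrb, a biliverdin reductase, was at 2.45, 2.54 and 2.63 at 2500 ppm and 2.86, 3.06 and 3.16 at 5000 ppm, a difference of 0.48 ± 0.17 (SE) with no overlap. The ferritin light chain gene Ftl1 differed by 0.43 ± 0.20 (SE), also with no overlap. Hmox1, the inducible heme oxygenase, had overlapping mice and a difference of 0.15 ± 0.25 (SE), which was 0.0108 without 2500 ppm mouse 3. Fech, which inserts iron into heme, had the opposite order, at −0.45 ± 0.28 (SE).

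The regulators of the pathway had a smaller median than its target lists, 0.11 over 16 genes, and it was −0.01 with quantile normalization and 0.04 without 2500 ppm mouse 3. Nfe2l2 was at 4.15, 4.10 and 3.78 at 2500 ppm and 3.91, 3.83 and 4.16 at 5000 ppm, a difference of −0.05 ± 0.17 (SE) whose sign turned when single arrays were left out. Another Nfe2l2 probe gave −0.38 (unadjusted p = 0.0307 in limma), and the mean of both probes −0.22. Keap1 differed by 0.20 ± 0.15 (SE), with overlapping mice. Maff, a small Maf partner, was at 0.75, 0.45 and 0.64 against 1.09, 1.05 and 0.90, a difference of 0.40 ± 0.16 (SE). Osgin1, an oxidative stress response gene placed with the regulators, differed by 0.56 ± 0.15 (SE). For both genes every mouse at 5000 ppm was higher.

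The first 250 bases of each window in RefSeq's promoter table were searched for the antioxidant response element core, spelled TGACNNNGC, on both strands. These bases can reach past the annotated start of the gene, and the search did not cover every chromosome. The core was present for 11 of 70 measured Nrf2 target list members with a window (15.7%). Among all genes with a searched window it was present for 3112 of 27025 (11.5%). The upstream windows of Gclm and Mgst1 are printed because both genes are members whose doses did not overlap and both hold 1 match, which is in capitals. They lie at chr3:122245307-122245486 and chr6:138140277-138140526 of GRCm38.p6, both on the plus strand, and end where the annotated gene begins.
Gclm: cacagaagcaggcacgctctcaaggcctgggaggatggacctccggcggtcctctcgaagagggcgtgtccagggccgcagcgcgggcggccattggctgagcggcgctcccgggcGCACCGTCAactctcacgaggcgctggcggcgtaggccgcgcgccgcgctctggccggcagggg
Mgst1: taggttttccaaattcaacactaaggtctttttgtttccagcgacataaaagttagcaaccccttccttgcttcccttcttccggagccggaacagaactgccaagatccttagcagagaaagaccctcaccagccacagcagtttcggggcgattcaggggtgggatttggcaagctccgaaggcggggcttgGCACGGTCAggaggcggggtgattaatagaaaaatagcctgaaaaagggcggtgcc
The windows of Gsta2 and Gm10639 printed above, and those of Nqo1, Srxn1, Gpx2 and Cbr3, held no match of these letters. Of the other list members with a match, some also had doses apart and some overlapped, the latter with differences from 0.05 to 0.17. A match is a description of the letters only.

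**Figure D3:**
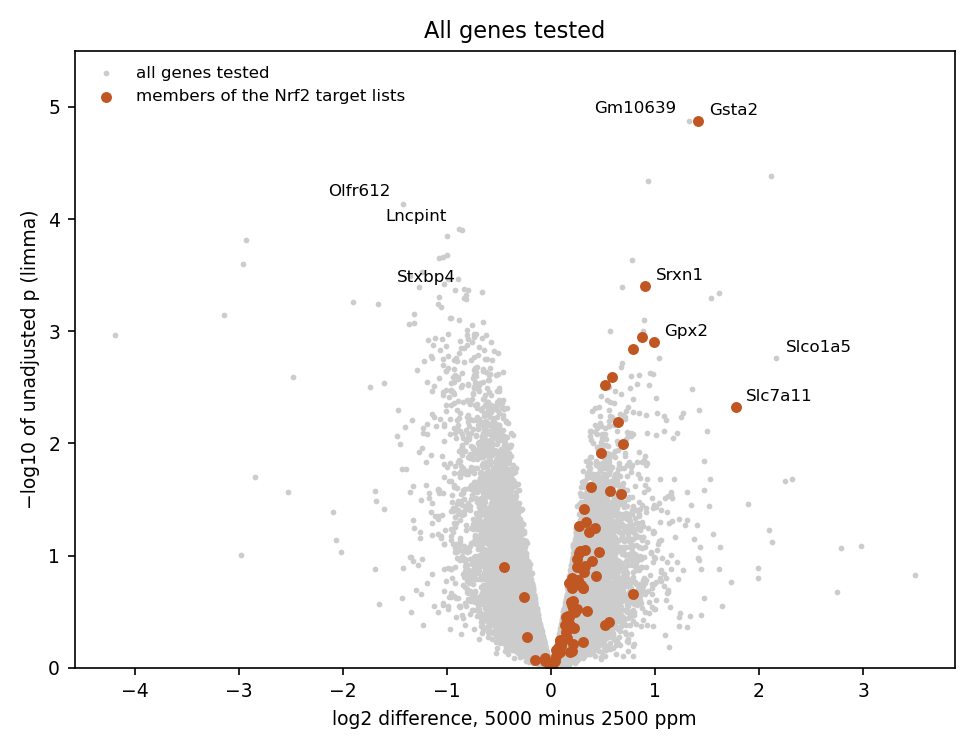
Log2 difference, 5000 minus 2500 ppm, against −log10 of the unadjusted p from limma for all 32508 genes, with the 82 measured members of the Nrf2 target lists in orange. Gsta2 and Gm10639 have the smallest p, and the orange points lie mostly to the right of 0, where 75 of the 82 members are.

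Beside the Nrf2 targets, the named genes of smallest p that were higher at 5000 ppm had mixed functions. Dubr, a long noncoding RNA, was at 0.04, 0.09 and −0.08 at 2500 ppm and 0.85, 0.65 and 0.88 at 5000 ppm, a difference of 0.78 ± 0.15 (SE, adjusted p = 0.527 in limma). Slco1a5, an organic anion transporter, was faint, at −4.24, −4.23 and −3.26 against −1.30, −1.65 and −2.30, with a difference of 2.16 ± 0.55 (SE), and one of 1.06 with normexp. Dpp3, a peptidase that binds Keap1, was at 1.56, 1.40 and 0.90 against 1.94, 2.02 and 1.95. In all 3 the doses did not overlap. They did not overlap either for Chmp6, an ESCRT-III subunit (0.68 ± 0.14, SE), the RNA-binding protein gene Rbm45 (0.89 ± 0.20), the intraflagellar transport gene Ift27 (0.89 ± 0.21) and the centrosomal gene Cep131 (0.57 ± 0.13). A different probe of Cep131 gave −0.12. The means of Chmp6 and Ift27 were 0.55 and 2.79 at 2500 ppm and 1.23 and 3.68 at 5000 ppm. In controls, on the other slide, they were 1.02 and 3.39. Without 2500 ppm mouse 3 the differences of Chmp6 and Ift27 were 0.57 and 0.67.

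On the lower side, the named genes of smallest p also had mixed functions, and for several of them another probe gave less. Lncpint, a long noncoding RNA, was at 2.52, 2.34 and 2.47 at 2500 ppm and 1.78, 1.50 and 1.41 at 5000 ppm, a difference of −0.88 ± 0.16 (SE, adjusted p = 0.527 in limma), while its other probe gave −0.06. Its means of 1.41 in controls and at 20 ppm, on the other slide, were near those at 5000 ppm. Airn, the noncoding RNA antisense to Igf2r, was at 1.36, 1.44 and 1.55 against 0.82, 0.99 and 0.83, and Mcpt-ps1, a mast cell protease pseudogene, at 1.22, 1.51 and 1.04 against 0.61, 0.49 and 0.39. The bicarbonate transporter genes Slc4a9 and Slc4a8 differed by −0.69 ± 0.17 and −0.84 ± 0.21 (SE). Stxbp4, Ccdc150, Cyp2j13, Bnc2 and Zfp27 had differences from −0.81 to −0.58 with no overlap. Other probes of Slc4a8, Bnc2 and Zfp27 gave differences above 0, of 0.09, 0.22 and 0.33. Those of Stxbp4, Cyp2j13 and Airn gave −0.0011, −0.0294 and −0.19. With normexp the differences of the faint genes Stxbp4, Ccdc150, Slc4a9, Slc4a8, Cyp2j13 and Bnc2 lay between −0.42 and −0.25.

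Of 56605 probes, 106 were well above background at 2500 ppm only and 49 at 5000 ppm only, and these included 28 and 13 named genes. The direction of each follows from this choice. For such a probe only a bound holds, taken between the mean of the bright dose and, at the other, the higher of its own signal and the array's lowest measurable one. Mmp25, a membrane-anchored metalloproteinase, was at least 2.21-fold lower at 5000 ppm. The olfactory receptor genes Olfr612 and Olfr1225 were at least 1.78-fold and 1.64-fold lower, Frem2 and Saxo1 at least 1.73-fold lower. In the other direction Zpbp, Olfr1036, Unc5d, Mat1a and Pou5f1-rs4 were at least 1.69-fold, 1.63-fold, 1.51-fold, 1.43-fold and 1.39-fold higher at 5000 ppm. Each of these genes passed the filter through its bright dose alone, so no test of it is read here. With normexp their log2 differences lay between −0.24 and 0.35 and fell short of these bounds. The bounds thus hold for means of the processed signal only, and they carry no error. The gene model Gm1976, outside the rule for named genes and chosen after its value was seen, was at least 3.07-fold lower.

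Features with different kinds of identifier differed in the balance of directions. This split by identifier was made after the values were seen. Among 2508 features known by a full-length cDNA clone, 9.53% were lower and 1.04% higher at an unadjusted p under 0.05, with a median difference of −0.08. Among 6107 Ensembl transcripts the shares were 7.22% and 1.10%. RefSeq mRNAs went the other way, with 1.07% of 16671 lower and 2.39% higher, and a median of 0.07. Of 3095 features known by genome coordinates, 96 were lower and 59 higher. Of 1438 RefSeq noncoding features, 48 were lower and 24 higher. Without 2500 ppm mouse 3 the clones stood at 12.2% lower and 2.75% higher with a median of −0.01, and Ensembl transcripts at 9.12% and 2.26% with a median of 0.03. In that setting the genome coordinate class turned, with 3.36% lower and 5.53% higher, and so did RefSeq noncoding features, with 2.99% and 3.96%. The mean level of the clones was −2.14, −2.11 and −1.91 at 2500 ppm and −2.18, −2.11 and −2.18 at 5000 ppm, and 2500 ppm mouse 3 was the highest of the 6 in this class.

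**Figure D4:**
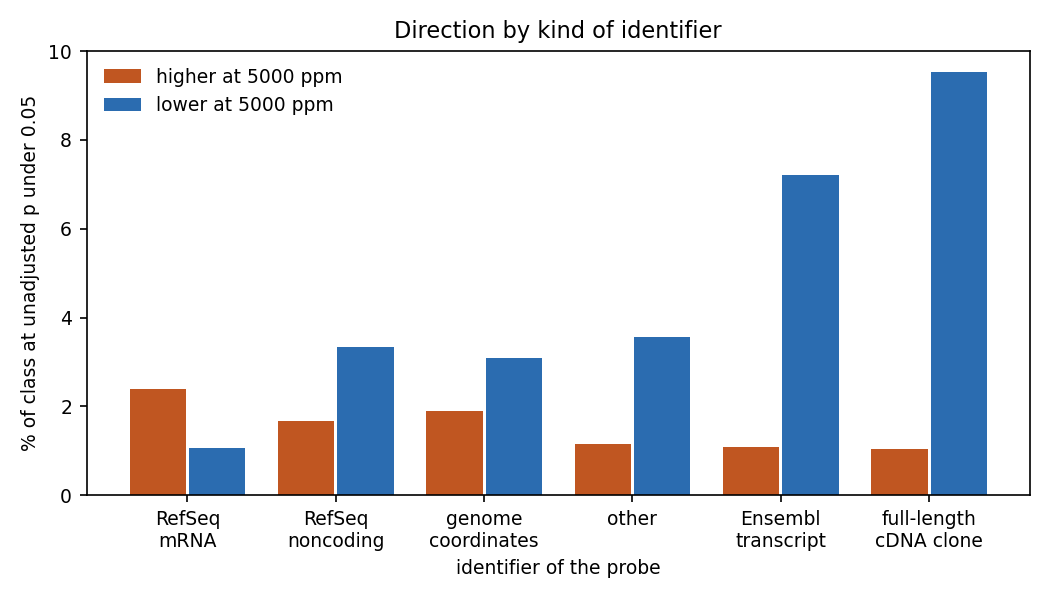
Share of features, in percent of their class, that were higher (orange) or lower (blue) at 5000 ppm at an unadjusted p under 0.05, by the kind of identifier the probe carries. Clone and Ensembl features are mostly lower (9.53% and 7.22%), and RefSeq mRNAs more often higher (2.39%).

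The 19 measured targets and receptors of CAR and PXR, the nuclear receptors that pyrethroids activate in rodent liver, had a median of 0.05 and none had an unadjusted p under 0.05. Cyp2b10, the classic CAR target, was at 7.03, 6.82 and 7.09 at 2500 ppm and 7.12, 6.89 and 7.09 at 5000 ppm, a difference of 0.05 ± 0.24 (SE). Cyp1a1, the classic target of the aryl hydrocarbon receptor, was at −1.08, −3.17 and −2.67 against −1.87, −2.51 and −2.35. The doses overlapped in both genes. The 95% interval of Cyp2b10 ran from −0.47 to 0.57. Among the lung P450 and flavin monooxygenase genes the median was 0.14, with Cyp2f2, the main P450 of club cells, at 0.21 ± 0.20 (SE). Carboxylesterases had a median of −0.07, which was 0.08 without 2500 ppm mouse 3, although Ces1f was at 0.94, 1.05 and 1.55 against 1.87, 1.66 and 1.88. For the sodium channel genes the median was −0.04, which was 0.15 without 2500 ppm mouse 3, and Scn10a had a difference of 0.31 ± 0.23 (SE) with overlapping mice. Conjugating glucuronosyl and sulfo transferases had a median of 0.20 over 9 genes, with the doses apart for 1 of them, beside 15.9% of all genes. Their differences ran from −0.74 (Sult1c2) to 1.14 (Ugt2b5, measured above background on 1 of 3 arrays at 2500 ppm). Among 12 genes of the aryl hydrocarbon receptor list, 11 differences were above 0, beside 55.8% of all genes. The largest was that of Nqo1, which is counted among the Nrf2 targets as well. Xdh, xanthine dehydrogenase, had 0.65 ± 0.26 (SE) by 1 probe and −0.07 by another.

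Stress, growth and lipid lists had medians between −0.05 and 0.20. Gdf15, a stress cytokine and p53 target, was at 0.70, 0.79 and 0.15 at 2500 ppm and 1.29, 0.73 and 1.91 at 5000 ppm, with overlap. Atf5, a factor of the amino acid response, was at 5.69, 5.38 and 4.83 against 5.98, 5.85 and 6.31, without overlap, and Trib3, of the same response, had a difference of −0.67 ± 0.35 (SE). The metallothionein gene Mt2 was at 4.22, 4.28 and 3.77 against 4.64, 4.88 and 4.69, and the immediate early gene Ier3 at 1.41, 1.65 and 1.33 against 2.53, 2.03 and 2.02. Neither overlapped, and their differences were 0.65 ± 0.22 and 0.73 ± 0.26 (SE). Proliferation genes had a median of 0.02 over 36 members, with Mki67 at −0.01 ± 0.28 and Top2a at −0.05 ± 0.41 (SE), whose signs turned with the scaling. The 19 cholesterol synthesis genes had a median of 0.20, which was −0.01 without 2500 ppm mouse 3.

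Natural killer and cytotoxic cell markers had a median of 0.44 over 16 genes, with 14 differences above 0 (beside 55.8% of all genes). Higher at an unadjusted p under 0.05 were 2 (beside 1.86% of all genes), and 5 lay apart as higher (beside 8.53%). Nkg7, a granule protein gene, was at 1.79, 1.94 and 1.58 at 2500 ppm and 2.50, 2.45 and 2.47 at 5000 ppm, a difference of 0.70 ± 0.30 (SE, adjusted p = 0.914 in limma). Ccl5, a chemokine gene, was at 4.02, 4.20 and 2.87 against 4.44, 4.41 and 4.57, and Klre1, a receptor gene, at −3.15, −2.60 and −2.45 against −2.12, −1.85 and −1.66. Ncr1, which defines these cells, was at −2.41, −2.13 and −2.53 against −2.16, −1.90 and −1.89 and overlapped. The list's mean was −0.23, 0.13 and −0.38 against 0.21, 0.26 and 0.39. In controls, on the other slide, it was 0.26, close to 5000 ppm. Without 2500 ppm mouse 3 the median was 0.33 and no member had an unadjusted p under 0.05.

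Neutrophil markers had a median of 0.09 over 16 genes, and 10 differences were above 0 (beside 55.8% of all genes). Of these markers, 2 lay apart as higher (beside 8.53% of all genes) and 1, the receptor gene Csf3r, as lower (beside 7.37%). Csf3r differed by −0.16 ± 0.13 (SE). Camp, the cathelicidin gene, was at −0.26, 0.47 and −0.32 against 2.33, 0.72 and 1.09, a difference of 1.42 ± 0.42 (SE, adjusted p = 0.711 in limma) with no overlap, and the difference was 0.95 without 5000 ppm mouse 1. Ngp, of the same granules, was at −3.16, −2.82 and −2.78 against −1.37, −2.54 and −2.23, also with no overlap. Ltb4r2, a leukotriene B4 receptor gene, differed by 1.01 ± 0.29 (SE), with every mouse at 5000 ppm higher, and by 0.40 with normexp. With normexp Ngp differed by 0.44. T cell, B cell, macrophage and dendritic cell lists had medians from 0.07 to 0.17. Interferon stimulated genes had a median of 0.03, inflammatory chemokines 0.18, mast cells −0.09 and erythroid and platelet genes 0.09. The class II gene H2-Eb1 ranged from 1.67 to 6.46 across the 6 mice with no order by dose.

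The markers that define lung tissue were bright on all 6 arrays. Scgb1a1 of club cells lay between 9.55 and 10.11, Sftpc of alveolar type 2 cells between 9.16 and 9.61, and the ciliated cell factor Foxj1 between 0.68 and 1.88. Their differences were 0.15 ± 0.20, 0.22 ± 0.15 and −0.26 ± 0.30 (SE). Type 2 and type 1 cell lists had medians of 0.16 and 0.14, the ciliated list −0.03, endothelium 0.08, smooth muscle −0.09 and fibroblasts 0.01. Without 2500 ppm mouse 3 these were 0.18, 0.02, 0.15, −0.04, 0.04 and −0.01 in the same order, so 4 of the 6 changed sign, and Foxj1 stood at −0.0033. Rsph1, a ciliary gene, was at 2.04, 2.02 and 2.94 against 1.31, 1.79 and 1.57, with no overlap, and its difference of −0.78 ± 0.33 (SE) was −0.47 without 2500 ppm mouse 3.

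Genes of tissues that border the lung varied between single mice of both doses. The mean of the adipose list was −0.55, −1.02 and 2.18 at 2500 ppm and −0.66, 2.20 and −0.72 at 5000 ppm. The adipokine gene Cfd was at 0.28, −3.41 and 5.40 against −0.95, 6.51 and −0.93. The club cell and mucous cell lists were highest in the same mice, 2500 ppm mouse 3 (5.61 and 0.88) and 5000 ppm mouse 2 (5.35 and 1.66). Cardiac muscle genes averaged 0.25, −2.06 and 1.82 against 0.26, 1.49 and −0.29, and their list median of 0.39 ran from −0.69 to 1.29 as arrays were left out. The mean of the Nrf2 target lists was 3.25 in 2500 ppm mouse 3 and 3.50 in 5000 ppm mouse 2. Within them, glutathione transferases were highest at 2500 ppm in mouse 3 (3.44, beside 3.23 in both other mice), and glutathione synthesis genes were lowest there (2.27, beside 2.41 and 2.42). The synthesis mean and that of all the Nrf2 target lists include the faint Slc7a11, which was also lowest in that mouse. The part of other tissues in these results was not tested. Thyroid, nerve, skeletal muscle and thymus lists had medians from −0.19 to 0.21 with no overlap for at most 1 member each, beside 15.9% of all genes.

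**Figure D5:**
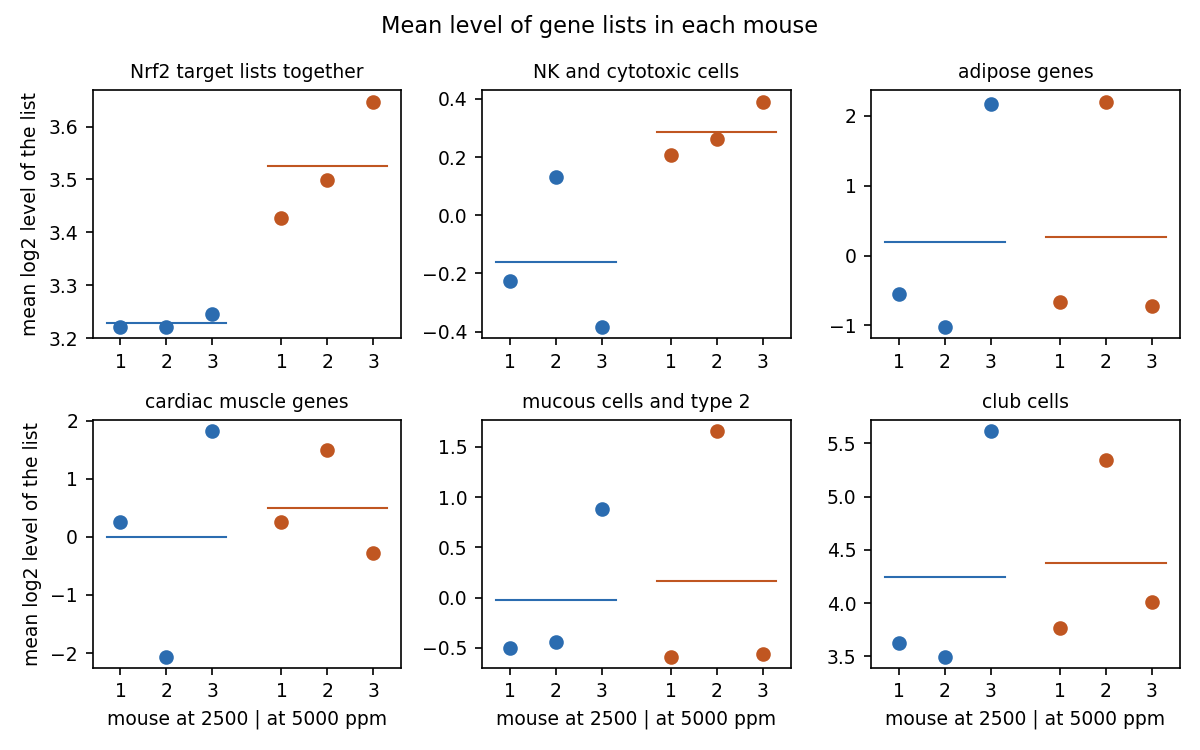
Mean log2 level, relative to the array's 75th percentile, of 6 gene lists in each mouse, with 2500 ppm in blue and 5000 ppm in orange and lines at the dose means. The mean of the Nrf2 target lists, Slc7a11 included, separates the doses (3.22 to 3.25 against 3.43 to 3.65). Adipose, mucous and club cell genes are highest in 2500 ppm mouse 3 and 5000 ppm mouse 2.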

How the data were processed

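Scanner files were deposited for 15 arrays of 1 colour. Per the file headers, Agilent Feature Extraction 10.7.3.1 made the background-subtracted processed signal, an intensity on a linear scale, and mm9 is the build of probe coordinates. Per the labels, cRNA came from 100 ng of RNA. The deposited log2 table equalled log2 of the processed signal less 1 constant per array, and served as an alternative. Control and outlier spots were left out and replicate spots averaged, giving 56605 probes. A probe counted as well above background on an array when at least 50% of its spots were, and 40771 probes were kept. Per symbol (RefSeq, GRCm38.p6) the kept probe with the highest mean was used.

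limma 3.58.1 in R 4.3.3 fitted 1 coefficient per diet over all 15 arrays (10 residual degrees of freedom), with 2-sided tests and Benjamini-Hochberg adjustment over 32508 genes. P-values measure the spread between these mice, and the number of arrays limits precision. The members, the 47 gene lists (734 of 798 distinct genes measured) and the alternatives were chosen with earlier results of these data known. The rule, which leaves out symbols of bare gene models, names the 12 genes each way with no overlap and the smallest p, the 2 largest differences of each list, 20 genes always named, and up to 5 genes each way measured at 1 dose only. Mgst1, Gstt1, Ephx1, Ptgr1, Gss, Taldo1, Abcc1, Txn1, Sod2, Ftl1, Maff, Nkg7, Ccl5 and Ncr1 fall outside it and were chosen as examples of their lists after their values were seen.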

Additional observations from a re-analysis of the deposited data

How the results depend on the processing

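With 3 mice a dose, 1 of them on an array of poorer quality, counts of calls depended on the setting. In limma 0 genes were called higher and 0 lower at an adjusted p of 0.05, and 1703 had an unadjusted p under 0.05. Called higher and lower were 1 and 0 with normexp, 183 and 530 with array weights, and 1 and 10 without mouse 3 of both 500 and 2500 ppm. Leaving out single arrays gave 0 to 0 higher and 0 to 9 lower, and the 9 unnamed features came only without 2500 ppm mouse 3. The smallest adjusted p in limma then ran from 0.0307 to 0.602. Low array weights also went to 500 ppm mouse 3 (0.143), 20 ppm mouse 1 (0.229) and control mouse 1 (0.238), whose spread enters every p-value. With the replicate number as a block, 1 gene was called higher and 0 lower, but deviations of same-numbered mice correlated at 0.254, −0.257 and −0.058, so the numbers do not pair the mice. All other settings called 0 and 0: quantile, array-median and deposited values, filters, probe rules, slide blocks, trend and robust settings, fewer diets, and 6 arrays less 2500 ppm mouse 3, which was chosen after seeing the data. The median of the Nrf2 target lists stayed between 0.16 and 0.27.

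The sign of the following genes turned, and some of them differed widely between single mice. Values were 0.0123 for Myh1 and 0.0781 for Top2a with normexp, −0.0756 for Cyp2b10 and 0.0014 for Top2a with quantile normalization, and 0.0058 for Mki67 with array-median scaling. With array weights they were 0.10 for Lum and −0.25 for Cyp1a1, and in both settings without mouse 3, 0.21 for Lum, 0.23 for Plin4 and −0.11 for Cyp1a1. Leaving out single arrays gave −0.0313 to 0.53 for Mzb1, −0.0517 to 0.98 for Mcpt4, −0.16 to 0.0213 for Nfe2l2, −0.0536 to 1.16 for Cyp2c29, −0.42 to 1.04 for Cyp2a4, −0.85 to 1.68 for H2-Eb1 and −0.53 to 2.64 for Myl7. It gave −1.70 to 3.11 for Cfd, −0.0296 to 0.12 for Cyp2b10, −0.37 to 0.68 for Cyp1a1, −0.29 to 0.29 for Mki67, −0.44 to 0.47 for Top2a, −1.40 to 0.21 for Lum, −1.27 to 0.23 for Plin4, −0.0399 to 0.81 for Lyve1, −1.77 to 2.97 for Clca1 and −0.44 to 2.42 for Nppa. The cause was not tested.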

Other observations

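Of the 40 features with the smallest p between the doses, 31 carried no symbol and 31 were lower at 5000 ppm. The clone class stood at −1.53 on average in 500 ppm mouse 3, above every other array, and that array also had the highest share of probes well above background, 87.0%.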
